A study of Mus musculus with 6 samples.

Results

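Endomucin, CD34, podocalyxin, CLEC14A, CD93, ICAM1, ICAM2, VCAM1 and MCAM are surface glycoproteins through which endothelial cells hold off or receive other cells. Their 9 genes (Emcn, Cd34, Podxl, Clec14a, Cd93, Icam1, Icam2, Vcam1 and Mcam) were taken by symbol from a table of 23827 listed genes, in which each has 1 entry. The table holds 6 libraries of ribosome-bound polyadenylated RNA from brain endothelial cells of mouse embryos at E14.5 (embryonic day), on a mixed background of C57BL/6 x 129/Sv. The 3 wild-type libraries were compared with 3 from embryos that overexpress Axin1, with a LacZ reporter after an internal ribosome entry site, from the R26 (Rosa26) locus. The mothers of both groups had been given tamoxifen at E12.5. The method was TRAP (translating ribosome affinity purification), in which ribosomes carrying a tag are captured along with the messages they are reading. The drivers of the ribosome tag and of the Axin1 allele, and whether embryos were pooled, are not stated in the labels. The labels call the libraries biological replicates. The p-values set group differences against the spread between them, which limma moderates for each gene by the spread over all tested genes.

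Sialomucins are proteins with long, heavily O-glycosylated and sialylated stems. On most vessels these charged stems keep blood cells at a distance and help to open the lumen, while with the right sugars the same proteins can serve as ligands for selectins. The ICAM and VCAM1 proteins, of the immunoglobulin superfamily, do the opposite: they bind leukocyte integrins, and cytokines acting through NF-kB induce ICAM1 and VCAM1 on inflamed vessels. AXIN1 holds together the enzymes that tag beta-catenin for degradation, so its overexpression dampens canonical Wnt signalling, the pathway that directs barrier formation in brain vessels.

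Library depth, worked back from the deposited values, was 53523988 to 62507579 reads per wild-type library and 21077145 to 37039875 per Axin1 library. Axin1 itself was 13.6, 14.4 and 15.1 RPKM (reads scaled to transcript length and library depth) in the wild-type libraries and 37.8, 38.1 and 37.4 RPKM in the Axin1 libraries, as the labels say. Genes had to average 1 RPKM or more to be tested. Of the 12493 that did, limma called 1800 higher and 1046 lower with Axin1 overexpression at a Benjamini-Hochberg adjusted p under 0.05, and 1248 and 1392 with median-of-ratios scaling. The column names carry one tag for all wild-type libraries and another for all Axin1 libraries. If these tags mark a batch, its effect and that of the genotype cannot be told apart. In bulk RNA, fewer cells of a type and less RNA per cell cannot be told apart either.

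All 9 genes passed the filter on low values and were tested. With Axin1 overexpression Emcn and Clec14a rose, Vcam1 fell, and the other 6 did not pass. Among all tested genes 14.4% were called higher and 8.37% lower, 22.8% in all, so that 3 calls among 9 genes lie close to the background and the count is no result about the set. The libraries of the groups did not overlap for 7 of the 9 genes, with Axin1 higher for 6 and lower for 1. Such separation was common in the table, at 43.9% of tested genes, or 28.0% with Axin1 higher and 15.9% with Axin1 lower. The median log2 fold change of the 9 genes was 0.17, beside 0.04 over all tested genes. Fold changes are given on the log2(RPKM + 1) scale, positive where Axin1 overexpression is higher, with the limma SE. The plot of each gene by library shows the values behind these calls.

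**Figure D1:**
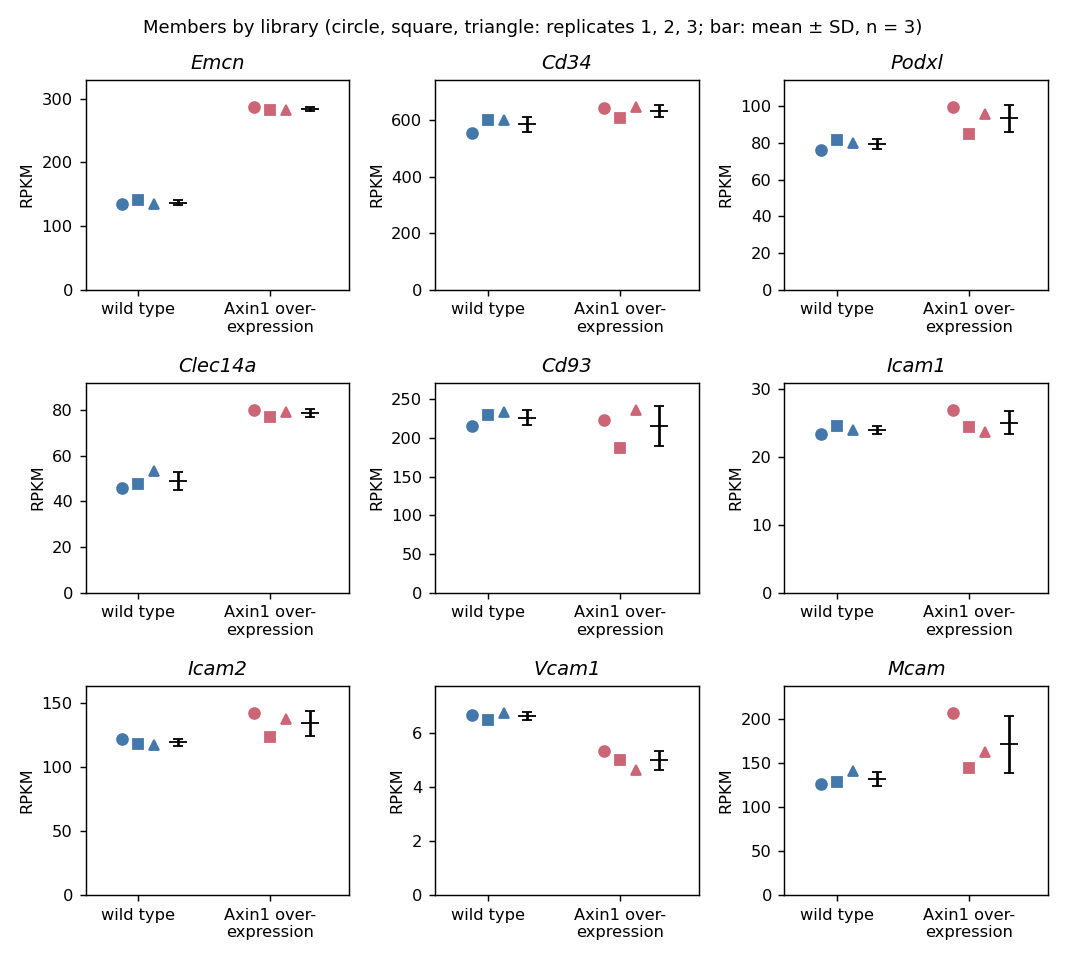
RPKM (vertical axes, from 0) of the 9 genes in the 3 wild-type and 3 Axin1 libraries; marker shapes are replicates 1 to 3 and bars the mean ± SD (n = 3). Emcn lies between 282 and 287 RPKM in the Axin1 libraries and between 134 and 141 in wild type, while the groups overlap for Cd93 and Icam1.

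The sialomucin genes differed in level and in response. Endomucin, an O-glycosylated protein of capillary and venous endothelium that hinders leukocyte contact, showed the largest change of the 9. Emcn was at 134, 141 and 134 RPKM in wild-type replicates 1 to 3 and at 287, 282 and 282 RPKM in Axin1 replicates 1 to 3. The libraries within each group lay close together and far from those of the other group. The mean went from 136 ± 4.3 to 284 ± 2.72 RPKM (SD, n = 3), or 2.08 times the wild-type level, with a log2 fold change of 1.05 (0.06 SE, adjusted p by limma = 3.65e-05). By this change Emcn ranked 35 from the top of the 12493 tested genes, among 40 that were called higher with a log2 fold change of at least 1. In rank of level it went from 365 to 122. The authors' deposited table gave it 8425 mean normalized counts in wild type and 17026 with Axin1 overexpression, and an adjusted p of 1.5e-23.

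Cd34, the stem-cell and endothelial sialomucin after which the family is named, was the most abundant of the 9 by RPKM. It was at 555, 600.1 and 602 RPKM in wild type and at 644, 609 and 646 RPKM with Axin1 overexpression. All Axin1 libraries were above all wild-type libraries, but by a margin small beside the spread within the groups. The log2 fold change was 0.11 (0.06 SE, 95% interval -0.03 to 0.26, limma adjusted p = 0.219), and the interval leaves room for a rise of that upper size. Cd34 ranked 34 of 12493 by level in wild type and 28 with Axin1 overexpression.

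Podxl encodes podocalyxin, which opens vessel lumens by charge repulsion and is tied to the cytoskeleton through NHERF and ezrin-family proteins. It was at 76.2, 81.6 and 79.8 RPKM in wild type and at 99.5, 85.0 and 95.5 RPKM in the Axin1 libraries. The groups did not overlap, and Axin1 replicate 2 lay nearest to wild type. The log2 fold change was 0.23 (0.07 SE, 95% interval 0.06 to 0.40, limma adjusted p = 0.053), just outside the threshold. The call depends on the setting, since 7 of 18 alternatives placed Podxl inside it (adjusted p from 0.0332 to 0.149 over all 18). Those were a pseudocount of 10, a mean of at least 5 RPKM, rescaling to pan-endothelial markers, trend and robust variances, voom on recovered reads, and both fits with correction for GC content and transcript length. In the authors' deposited table the adjusted p of Podxl (DESeq) was 0.242, far from the threshold.

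Clec14a and Cd93 encode related C-type lectin-like proteins of the endothelial surface that both bind the matrix protein multimerin 2 and take part in vessel sprouting. Clec14a was at 46.1, 47.5 and 53.5 RPKM in wild type and at 80.2, 77.1 and 79.4 RPKM in the Axin1 libraries. The lowest Axin1 library lay well above the highest wild-type library. The mean went from 49.0 ± 3.95 to 78.9 ± 1.62 RPKM (SD, n = 3), 1.61 times the wild-type level, with a log2 fold change of 0.68 (0.07 SE, adjusted p by limma = 0.000682). It ranked 118 from the top of the tested genes by log2 fold change. In the authors' deposited table its adjusted p was 2.61e-09.

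Cd93 did not share this rise. It was at 215, 229 and 234 RPKM in wild type and at 223, 187 and 236 RPKM in the Axin1 libraries. The groups overlapped, with Axin1 replicate 2 the lowest of all libraries and Axin1 replicate 3 the highest. The log2 fold change was -0.07 (0.09 SE, 95% interval -0.28 to 0.13, limma adjusted p = 0.58), and without Axin1 replicate 2 it was 0.02.

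The RefSeq promoter table holds 5 of the 9 genes (Cd34, Emcn, Icam1, Mcam and Clec14a). The 250 bases before the start site are shown for Emcn and Clec14a, which rose together, and for Cd34, the abundant sialomucin that did not pass. They are 5′ to 3′ on the gene's strand, in build GRCm38.p6, at chr3:137340828-137341077 (plus strand, Emcn), chr12:58269259-58269508 (minus strand, Clec14a) and chr1:194938571-194938820 (plus strand, Cd34). Capitals mark matches, on either strand, to AGGAA (the core bound by ETS factors) or to ACAAT (SOX).
Emcn: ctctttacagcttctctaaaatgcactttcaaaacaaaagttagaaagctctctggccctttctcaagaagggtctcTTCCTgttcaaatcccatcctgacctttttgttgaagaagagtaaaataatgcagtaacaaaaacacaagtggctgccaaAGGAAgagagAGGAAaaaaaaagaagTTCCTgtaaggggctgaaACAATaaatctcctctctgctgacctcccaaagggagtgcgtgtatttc
Clec14a: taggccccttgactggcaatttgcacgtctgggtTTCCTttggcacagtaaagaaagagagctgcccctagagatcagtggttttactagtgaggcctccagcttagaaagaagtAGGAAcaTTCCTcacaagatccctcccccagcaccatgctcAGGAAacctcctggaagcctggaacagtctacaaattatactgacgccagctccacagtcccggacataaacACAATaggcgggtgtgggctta
Cd34: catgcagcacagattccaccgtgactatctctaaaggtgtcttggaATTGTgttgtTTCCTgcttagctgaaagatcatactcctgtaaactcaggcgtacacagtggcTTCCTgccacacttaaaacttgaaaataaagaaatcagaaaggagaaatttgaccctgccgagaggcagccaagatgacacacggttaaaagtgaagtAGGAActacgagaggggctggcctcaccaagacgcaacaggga
The Emcn and Clec14a windows each hold 4 matches to AGGAA and 1 to ACAAT, and that of Cd34 holds 3 and 1. Of the windows not shown, that of Icam1 holds 1 match to AGGAA and that of Mcam none, and neither matches ACAAT. The letters GGNNNTTCC (NF-kB) match 2 times in the Icam1 window, in none of the others, and in 15.7% of all promoters. Windows with a match are common: of 32851 mouse promoters of this length, 60.3% hold the ETS letters and 27.7% the SOX letters. The letters CTTTGA (TCF/LEF, the factors that work with beta-catenin) match in none of the 5 windows and in 13.8% of all promoters. These are letter matches in short windows and describe neither binding nor a cause.

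Among the immunoglobulin superfamily genes, Vcam1 was the lowest of the 9 by RPKM and the only gene to fall. VCAM1 binds an integrin of lymphocytes and monocytes, and the protein is also known from neural stem cells and from mesenchymal cells around vessels. Vcam1 was at 6.67, 6.48 and 6.75 RPKM in wild type and at 5.35, 5 and 4.63 RPKM in the Axin1 libraries, from 332 to 1407 reads. Each Axin1 library lay below each wild-type library. The mean went from 6.63 ± 0.139 to 4.99 ± 0.361 RPKM (SD, n = 3), 24.76% lower, with a log2 fold change of -0.35 (0.06 SE, adjusted p by limma = 0.00876). At this low level the size rests on the pseudocount, being -0.41 with 0.1 and -0.15 with 10, with the call kept in both. The authors' deposited table gave an adjusted p of 0.00449. By log2 fold change Vcam1 ranked 672 from the bottom of the tested genes, so that a fall of this size was not rare in the table.

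Icam1, the inducible ligand of beta2 integrins, was at 23.3, 24.5 and 24.0 RPKM in wild type and at 26.9, 24.4 and 23.7 RPKM in the Axin1 libraries. The groups overlapped, and the log2 fold change was 0.06 (0.07 SE, 95% interval -0.10 to 0.21, limma adjusted p = 0.575). Icam2, which endothelium displays without stimulation, was at 122, 118 and 117 RPKM in wild type and at 142, 123 and 137 RPKM in the Axin1 libraries. The Axin1 libraries were all above wild type, with replicate 2 by a narrow margin. The log2 fold change was 0.17 (0.07 SE, 95% interval 0.01 to 0.32, limma adjusted p = 0.112), and no alternative of 18 brought it under the threshold.

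Mcam encodes CD146, an adhesion molecule of endothelial junctions that pericytes and smooth muscle also carry. It was at 126, 129 and 141 RPKM in wild type and at 207, 144 and 163 RPKM in the Axin1 libraries. The groups did not overlap, but Axin1 replicate 1 stood far above the other two, and replicate 2 was close to wild type. The mean went from 132 ± 7.93 to 172 ± 32.5 RPKM (SD, n = 3), with a log2 fold change of 0.36 (0.12 SE, 95% interval 0.08 to 0.64, limma adjusted p = 0.0637). Without Axin1 replicate 2 it was 0.48 (adjusted p = 0.0413) and without Axin1 replicate 1 it was 0.22 (0.115), so the size rests on these libraries. Rescaling to pan-endothelial markers also brought Mcam under the threshold (0.40, adjusted p = 0.00835). In the authors' deposited table its adjusted p (DESeq) was 0.378, far from the threshold.

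**Figure D2:**
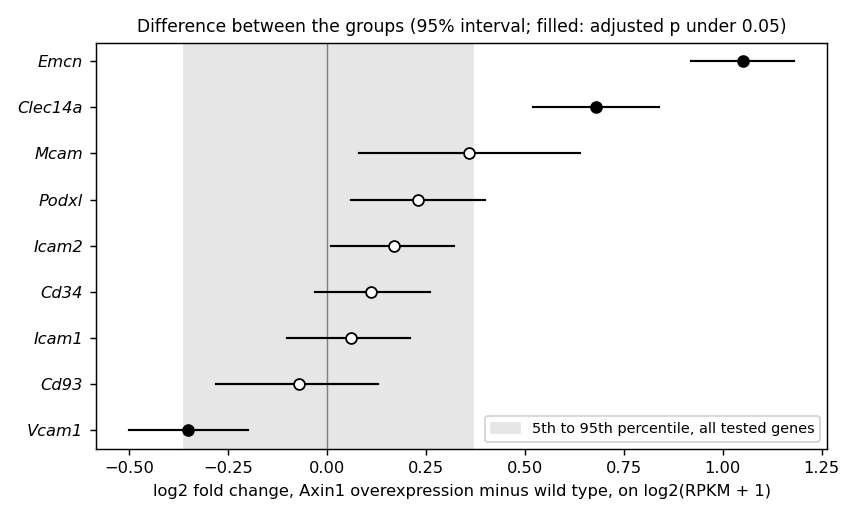
Log2 fold change on log2(RPKM + 1) (horizontal axis, Axin1 overexpression minus wild type) of each gene with its unadjusted 95% interval from limma, filled where the adjusted p is under 0.05; the grey band runs from the 5th to the 95th percentile of all tested genes, -0.36 to 0.37. Emcn (1.05) and Clec14a (0.68) lie beyond the band, and the other 7 have their estimates within it.

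The 9 genes kept nearly the same order of level in both groups. By mean RPKM in wild type the order was Cd34, Cd93, Emcn, Mcam, Icam2, Podxl, Clec14a, Icam1 and Vcam1, and only Emcn and Mcam, next to each other at 136 and 132 RPKM, had overlapping libraries. With Axin1 overexpression Emcn passed Cd93 and stood second. There the only neighbours with overlapping libraries were Cd93 and Mcam, at 215 and 172 RPKM. Emcn made up 9.6% to 10.2% of the summed RPKM of the 9 genes in the wild-type libraries and 16.7% to 18.4% in the Axin1 libraries. The share of Cd34 was 42.6% to 43.6% and 37.5% to 39.6%. Replicates agreed to different degrees: in the Axin1 group the SD was 1.0% of the mean for Emcn and 2.1% for Clec14a, against 18.9% for Mcam. Axin1 replicate 1 was the highest Axin1 library for 7 of the 9 genes, and Axin1 replicate 2 the lowest for 6. Wild-type replicate 1 was the lowest wild-type library for 7.

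Ratios of paired genes within a library do not depend on how libraries are scaled. The RPKM of Emcn over that of Cd34 was 0.241, 0.235 and 0.222 in wild type and 0.445, 0.463 and 0.436 in the Axin1 libraries, a mean ratio 1.93 times as high. Clec14a over Cd93 went from 0.214, 0.207 and 0.229 to 0.359, 0.413 and 0.336. Vcam1 over Icam1 went from 0.286, 0.264 and 0.281 to 0.199, 0.205 and 0.196. In each of these the groups did not overlap. Emcn also gained on Clec14a, from a ratio of 2.79 ± 0.254 to 3.60 ± 0.0606 (SD, n = 3). Icam2 over Icam1 overlapped, at 4.97 ± 0.216 and 5.37 ± 0.366 (SD, n = 3). The 7 pairs were chosen after the values were seen, and each of the 6 with separate groups holds Emcn, Clec14a or Vcam1, so these ratios restate the changes of those genes free of scaling and are given with no test.

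**Figure D3:**
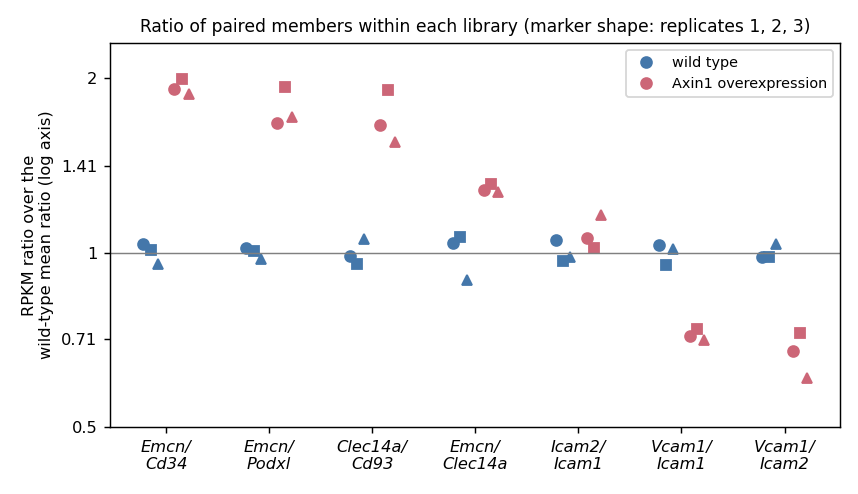
RPKM ratio of paired genes in each library, divided by the mean ratio of the wild-type libraries (log axis); blue is wild type, red Axin1 overexpression, and shapes are replicates 1 to 3. The pairs were chosen after the values were seen; the groups overlap for Icam2 over Icam1 and are separate in the 6 pairs that hold Emcn, Clec14a or Vcam1.

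Some markers of cells other than endothelium also differed between the groups, and several of the 9 genes are known from those cells. The counts of called markers stand beside 14.4% higher and 8.37% lower among all tested genes. Neural progenitor markers were called higher for 6 of 10, with a summed level of 571 to 706 RPKM in wild type and 765 to 842 RPKM with Axin1 overexpression. Pericyte and smooth muscle markers were lower for 4 of 9 tested, with sums that overlapped slightly, at 44.4 to 52.4 and 31.9 to 45.1 RPKM. Axin1 replicate 1, the highest library for Mcam, had the highest of the Axin1 sums for these mural markers. This was not particular to them. The same library had the highest Axin1 sums for pan-endothelial (2937 RPKM), neural progenitor (842), meningeal (236) and microglial and leukocyte (51) markers. The neuron and the erythroid and platelet sums peaked in other Axin1 libraries. Meningeal fibroblast markers were lower for 2 of 10, but the Axin1 sums lay within the wild-type range (213 to 329 and 233 to 236 RPKM).

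Of the blood lineages, erythroid and platelet markers were higher for 3 of 5 tested (19.6 to 25.6 and 47.7 to 98.7 RPKM). The 3 called were all erythroid, and the platelet markers did not pass. The globin gene Hba-x alone went from a mean of 10.8 ± 3.12 to 57.3 ± 23.5 RPKM (SD, n = 3). Microglial and leukocyte markers were higher for 1 of 7, close to the 14.4% of all tested genes, and their sums overlapped (28.8 to 31.2 and 28.7 to 51.0 RPKM). The integrin genes Itgal, Itgam and Itgb2, whose products bind the ICAM proteins, lay below the filter in these libraries. No marker was at 0 in all libraries. The part of these cells in the changes of Vcam1, Mcam and the other genes was not tested. Neuron markers were higher for 3 of 6, but their sums overlapped (395 to 501 and 468 to 492 RPKM). The 12 pan-endothelial markers summed to 2789 to 2855 RPKM in wild type and 2658 to 2937 RPKM in the Axin1 libraries, with 1 higher and 2 lower. Rescaled to those markers, the log2 fold changes were 1.10 for Emcn, 0.72 for Clec14a and -0.32 for Vcam1, each still called.

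Genes that work with these proteins were taken from 6 lists, of which 58 of 69 genes in the table were tested. Of these, 8 (13.8%) were called higher and 11 (19.0%) lower, beside 14.4% and 8.37% of all tested genes. The lower calls numbered 5 after rescaling to pan-endothelial markers, a setting with 748 lower calls over all 12493 tested genes. In the main fit the median log2 fold change of the 58 was -0.06, beside 0.04 over all tested genes. Of the other leukocyte adhesion and transmigration genes, 1 of 12 tested was higher and 3 were lower (median -0.07). Darc, the chemokine-binding receptor of venules, went from 8.52, 8.75 and 6.27 to 4.22, 4.34 and 5.24 RPKM (log2 fold change -0.65, limma adjusted p = 0.00876), and this call was kept in all 18 alternatives. Cxcl12, a chemokine gene, had a log2 fold change of -0.24, the mucosal addressin gene Madcam1 -0.28 and the junctional adhesion gene Jam3 0.35. These 3 calls were less firm. Madcam1 missed the threshold on leaving out wild-type replicate 1 or 2, or Axin1 replicate 1 or 2 (-0.34 to -0.22 over the fits that leave out a library). Jam3 missed it on leaving out wild-type replicate 3, or Axin1 replicate 1 or 2 (0.28 to 0.40) and with the GC and length correction. Cxcl12 missed it on leaving out wild-type replicate 3 or any Axin1 library (-0.26 to -0.22). Rescaling to pan-endothelial markers ended the calls of Cxcl12 (-0.20, limma adjusted p = 0.15) and Madcam1 (-0.24, 0.0823), and having no filter that of Jam3. The endothelial selectin genes Sele and Selp, named after their values were seen, lay below the filter, with at most 0.0277 and 0.00915 RPKM in a library.

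The other sialomucins in the table were few. Of 3 tested, 1 was higher, Cd24a (log2 fold change 0.30), which missed the threshold on leaving out replicate 2 or 3 of either group (0.26 to 0.36) and with the GC and length correction (0.10). The list's median was 0.03. Cd24a is also abundant in immature neurons. Of the relatives and ligands of Clec14a, Cd93 and Mcam, 1 of 6 was lower and the other 5 did not pass (median -0.19). The lower gene was Igfbp7, whose secreted product binds CD93 (log2 fold change -0.26). Its call was lost in 10 of 18 alternatives. These were leaving out any library except wild-type replicate 3 (-0.32 to -0.21), the replicate block with or without the GC and length correction, a pseudocount of 0.1, no filter and rescaling to pan-endothelial markers. Mmrn2, which encodes the shared ligand multimerin 2 and was named after its values were seen, did not pass (0.09, limma adjusted p = 0.493).

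Cytoplasmic partners of these surface proteins, among them the NHERF and ezrin-family proteins that tie podocalyxin to the cytoskeleton, gave 2 higher of 7 (median 0.14). Slc9a3r2, which encodes NHERF2, went from 180, 179 and 176 to 213, 208 and 225 RPKM (log2 fold change 0.27, limma adjusted p = 0.0155), a call lost without Axin1 replicate 3 (0.24 to 0.30 over the fits that leave out a library). The radixin gene Rdx had a log2 fold change of 0.28 (adjusted p = 0.0478), which missed the threshold on leaving out any library except wild-type replicate 3 (0.21 to 0.34) and under 12 of 18 alternatives in all, the replicate block among them.

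Of 14 enzymes that build, sialylate or sulphate mucin-type sugars, 3 were called higher and 4 lower (median -0.13). The sialyltransferase genes differed among themselves. St3gal6 went from 35.3, 37.7 and 36.5 to 24.7, 27.8 and 29.6 RPKM (log2 fold change -0.41, limma adjusted p = 0.00906), and St3gal2 fell too (-0.33, 0.00953). St3gal4 rose from 9.77, 10.3 and 9.62 to 12.9, 11.9 and 12.8 RPKM (0.31, adjusted p = 0.0109). The sulphotransferase gene Chst1 had a log2 fold change of -0.46 (adjusted p = 0.0139). The calls of St3gal6, St3gal2 and Chst1 were kept in all 18 alternatives. That of St3gal4 was lost only with the GC and length correction together with the replicate block (adjusted p = 0.0731).

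On the route from cytokine receptors through NF-kB to Icam1 and Vcam1, 1 of 16 genes was higher and 3 were lower (median -0.10). The tumour necrosis factor receptor gene Tnfrsf1a had a log2 fold change of 0.26, the NF-kB subunit genes Relb and Rela -0.31 and -0.20, and the feedback inhibitor gene Tnfaip3 -0.21. None of these calls was firm. Tnfrsf1a missed the threshold on leaving out wild-type replicate 1, or Axin1 replicate 2 or 3 (0.24 to 0.28), and Relb on leaving out wild-type replicate 1 or Axin1 replicate 2 (-0.36 to -0.25). Those of Rela (-0.22 to -0.18) and Tnfaip3 (-0.24 to -0.17) were lost without any single library and with the replicate block. The GC and length correction ended the Rela and Relb calls, and so did rescaling to pan-endothelial markers, which left Relb at -0.27 (limma adjusted p = 0.0622). That rescaling ended the Tnfaip3 call too.

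**Figure D4:**
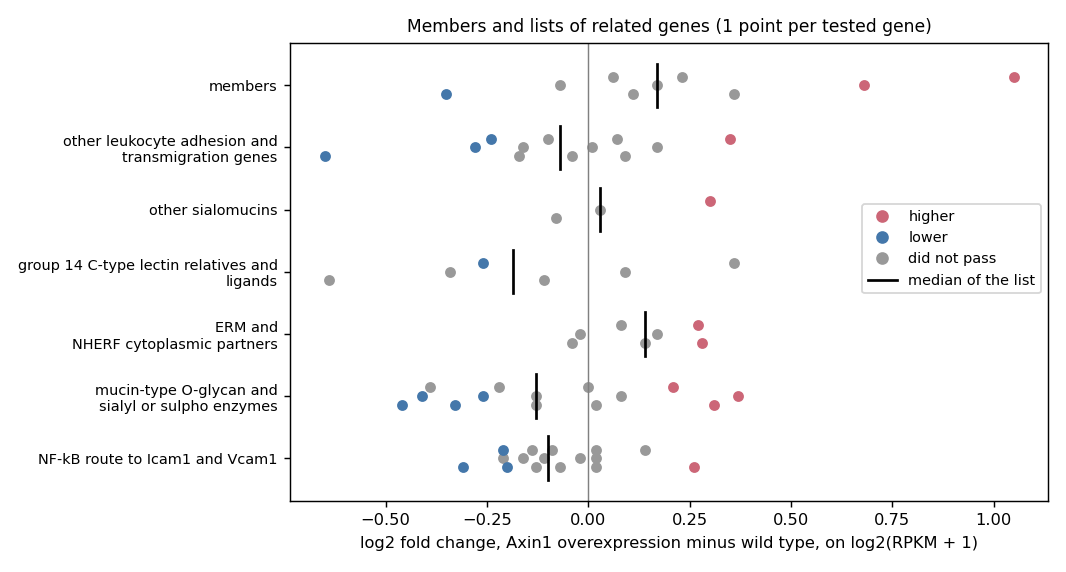
Log2 fold change on log2(RPKM + 1) (horizontal axis, Axin1 overexpression minus wild type) of each tested gene of the 9 (top row) and of 6 lists of related genes; red is higher, blue lower and grey did not pass, and the black line is the median. Emcn and Clec14a lie at 1.05 and 0.68, to the right of all tested genes of the 6 lists, and the list medians run from -0.19 to 0.14.

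For each changed gene the tested genes most like it were found by the root mean square distance between centred log2(RPKM + 1) profiles over the 6 libraries. Nearest to Emcn were Plac1 (distance 0.039), Hmga2 (0.077) and Tm4sf1 (0.078). Of these, Tm4sf1, a small membrane protein of endothelial cells, was the most abundant, at 41.4, 45.1 and 47.3 RPKM in wild type and 88.3, 85.0 and 92.7 RPKM in the Axin1 libraries. Nearest to Clec14a were Abi3 (0.033), Slfn3 (0.047) and Bace2 (0.058). Nearest to Vcam1 were Atg2a (0.032), Sipa1l2 (0.032) and C1qtnf6 (0.039). The profiles share the split between the groups, so likeness mostly reflects a change of like size on that scale. The pseudocount shrinks changes at low levels, such as that of Plac1 (mean 1.46 RPKM in wild type). Mean RPKM with Axin1 overexpression was 2.90, 2.31 and 1.99 times wild type for Plac1, Hmga2 and Tm4sf1, beside 2.08 for Emcn. For Abi3, Slfn3 and Bace2 it was 1.66, 1.79 and 1.84 times, beside 1.61 for Clec14a.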

How the data were processed

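Alignment with Bowtie, testing with DESeq and the build mm9 are recorded per the submitters' processing notes. For the read counter and filters, nothing is given in the sources used here. The authors deposited 1 table of RPKM by gene and library. Its headers do not name the unit, which was read from the values: the transcript length implied was, at the median over 9437 genes, 0.986 times that of the reference. The table also holds group means of a normalized count signal, their ratio (the fold of wild type over Axin1 overexpression) and p-values, per the file headers. Which mean is which group was read from 365 and 796 genes with reads in a single group. Reads were recovered by combining RPKM with these means. The results were whole (within 0.05 reads) for 100.0% of values of genes with 1 transcript, 28.5% of those with several, as Emcn and Cd34 have, and 84.6% overall. The floor set by a count of 0 (3 reads) is 0.048 to 0.142 RPKM for a transcript of 1 kb and covers counting error only.

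limma 3.58.1 (R 4.3.3) was run on log2(RPKM + 1), group as the only factor, for 12493 genes (mean RPKM of 1 or more), with Benjamini-Hochberg adjustment over all of them and a two-sided threshold of 0.05. The step was tested on simulated data without a batch, which checks the code and cannot vouch for the calls made here. Intervals are unadjusted 95% intervals. Alternatives were the replicate block, pseudocounts of 0.1 and 10, no filter or a mean of at least 5 RPKM, 3 rescalings, trend and robust variances, voom on recovered reads, a loess correction for length and GC content (span 0.5, 99.7% of tested genes) and leaving out each library. Lists of related genes and markers were written down by name. By rule, the genes named are the 9, Axin1, up to 4 called genes of each list with the lowest p, and the 3 genes nearest in profile to each changed gene. Itgal, Itgam, Itgb2, Sele, Selp, Mmrn2, C1galt1c1 and Hba-x fall outside the rule and were named after their values were seen. The 9 genes and the lists were chosen with earlier results of these data known. The motif letters and ratio pairs were chosen after the values were seen.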

Additional observations from a re-analysis of the deposited data

How the results depend on the processing

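The calls of Emcn, Clec14a and Vcam1 kept their direction and their side of the threshold in all 18 alternatives, with log2 fold changes of 0.87 to 1.10, 0.59 to 0.74 and -0.47 to -0.15. Their adjusted p reached at most 0.0019, 0.00651 and 0.0399. Of the 2 genes called higher, the count became 4 with rescaling to pan-endothelial markers (Podxl and Mcam added) and 2 to 3 when a library was left out. Podxl was added, for a count of 3, with a pseudocount of 10, a mean of at least 5 RPKM or trend and robust variances. The same held for voom and for both fits with the GC and length correction. Of the 1 called lower, the count stayed 1. With the pan-endothelial rescaling 1749 of all 12493 tested genes were called higher and 748 lower, beside 1800 and 1046 in the main fit. The direction of uncalled genes turned for Cd93 without Axin1 replicate 2 (0.02) and for Icam1 with a shared upper quartile (-0.002). The 2846 calls over all genes became 1769 with the GC and length correction, 1586 with that and the replicate block, and 1054 (without Axin1 replicate 2) to 2318 when a library was left out. It was 1402 without Axin1 replicate 3. The 8 higher genes of the 6 lists became 3 with the GC and length correction, 3 with it and the block, and 2 to 5 without a library. Over all tested genes the 1800 higher calls became 870 with that correction and 676 with it and the block. The 11 lower genes of the 6 lists became 5 with pan-endothelial rescaling and 5 to 8 without a library. C1galt1c1, called higher at 0.21, turned to -0.03 with the GC and length correction, with or without the block. The cause of these shifts was not tested. Replicate numbers are shared between the groups, but same-numbered libraries deviated together only weakly (correlations of 0.08, 0.13 and 0.06), though each library correlated best with its own number. The numbers are therefore not taken as pairs. With the replicate block 2675 genes were called, and the calls of Igfbp7, Rdx, C1galt1c1, Rela and Tnfaip3 were lost. Depth limits Vcam1 most, at 332 reads in the shallowest library.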
